A study of Rattus norvegicus with 4 samples.

Results

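The genes described here are 10 transcription factors of the midbrain dopamine lineage, chosen by name among the 32883 genes of the count tables: Pitx3, Nr4a2, En1, En2, Lmx1a, Lmx1b, Foxa1, Foxa2, Otx2 and Sox6. All 10 symbols were found. Single-nucleus RNA-seq had been run on ventral tegmental area (VTA) microdissected from experimentally naive Sprague-Dawley rats aged 90 to 120 days. The 4 libraries, 2 female and 2 male, each pooled tissue of 3 rats of the same sex, so p-values measure the spread between pools. They are called female 1, female 2, male 1 and male 2, and values per library follow that order. Nuclei had been stained with 7-aminoactinomycin D, a DNA dye, and sorted before droplet capture.

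These factors act in sequence in the floor plate and in the dopamine neurons it gives rise to. Lmx1a, Lmx1b, Foxa1 and Foxa2 are early specification factors. Nr4a2 (Nurr1) and Pitx3 switch on the genes of dopamine synthesis, storage and uptake and stay on in the adult. En1 and En2 are midbrain patterning factors needed for survival of these neurons. Sox6 and Otx2 are known from mouse as markers of different dopamine neuron groups, Otx2 in the ventral VTA and Sox6 more in the substantia nigra. Sox6 also has a separate, well-known role in oligodendrocyte precursors and other glia.

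Levels were compared between groups of nuclei, called gates, that were set by raw UMI counts (a UMI is 1 captured RNA molecule) of genes outside the list. The dopamine gate held nuclei with at least 2 UMIs each of Th, the rate-limiting enzyme of dopamine synthesis, and Slc6a3, the dopamine transporter. The Slc26a7-Gad2 gate held nuclei with both of those genes at 2 UMIs or more. The Th-C1ql1 gate required Th, C1ql1 and the vesicular glutamate transporter Slc17a6, with at most 1 UMI of Slc6a3. GABA nuclei had Gad1, and glutamate nuclei had Slc17a6 with no Gad1 or Th. Precursor nuclei had Pdgfra and astrocyte nuclei had Aqp4, both without neuron genes, and nuclei with the myelin gene Mog served as a background. The minimum of 2 UMIs for the Slc26a7-Gad2, Th-C1ql1, precursor and astrocyte gates was a choice. Nuclei in more than 1 gate were left out, 18 of the dopamine gate and 35 of the Slc26a7-Gad2 gate among them. After this, 304 dopamine, 69 Slc26a7-Gad2, 59 Th-C1ql1, 1165 GABA, 1359 glutamate, 1247 precursor, 1260 astrocyte and 8495 oligodendrocyte nuclei remained. The neuron gates differed little in depth, with medians of 7497 to 8976.5 UMIs per nucleus, while precursor, astrocyte and oligodendrocyte nuclei had medians of 2773, 3464 and 2314 UMIs.

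The gates carried the markers of their labels. Ddc and Slc18a2, enzyme and vesicular transporter of dopamine neurons, summed to 1718 to 2104 CPM (UMIs of a gene per 1000000 UMIs of the summed nuclei) in the dopamine gate against 27.7 to 49.2 CPM in the GABA gate. The libraries held 3628 to 6955 barcodes and 19714338 to 25824289 UMIs, and 20620 of 21606 barcodes were kept. Only 36 barcodes occurred in more than 1 library, and 1 of those was a dopamine nucleus. Oligodendrocyte markers (5 genes, 1 of them at 0 in the Th-C1ql1 gate) summed to 191.6 to 695.2 CPM in the neuron gates. Precursor markers (Cspg4, Vcan and Gpr17) summed to 7.71 to 27.0 CPM in the dopamine gate with 2 of 3 at 0, 65.1 to 226.2 CPM in the Slc26a7-Gad2 gate with 1 at 0, and 34.7 to 91.7 CPM in the Th-C1ql1 gate with 2 at 0. Their part in the results was not tested.

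Promoter windows of 8 of the 10 factors were matched by symbol in RefSeq (assembly GRCr8; 250 bases before to 50 bases after the start). Neither Foxa1 nor Otx2 matched. Where a symbol had several windows, only the first listed was used, and the others were not examined. Pitx3, Lmx1a and Lmx1b are shown as examples of factors that were higher in dopamine than in GABA and glutamate nuclei. Nr4a2, En1 and Foxa2 were also higher against both and are not printed. Sox6 is shown because its level was highest in glia. Each is printed 5′ to 3′ on its coding strand, with CpG dinucleotides in capitals.
Pitx3, chr1:254955276-254955575, minus strand: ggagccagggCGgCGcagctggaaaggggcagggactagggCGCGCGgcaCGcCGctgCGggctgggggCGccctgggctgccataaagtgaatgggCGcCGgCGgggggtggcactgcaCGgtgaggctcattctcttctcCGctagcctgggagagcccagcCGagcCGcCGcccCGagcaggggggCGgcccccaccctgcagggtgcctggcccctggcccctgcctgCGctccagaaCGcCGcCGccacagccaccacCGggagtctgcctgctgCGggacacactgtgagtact
Lmx1a, chr13:82367683-82367982, plus strand: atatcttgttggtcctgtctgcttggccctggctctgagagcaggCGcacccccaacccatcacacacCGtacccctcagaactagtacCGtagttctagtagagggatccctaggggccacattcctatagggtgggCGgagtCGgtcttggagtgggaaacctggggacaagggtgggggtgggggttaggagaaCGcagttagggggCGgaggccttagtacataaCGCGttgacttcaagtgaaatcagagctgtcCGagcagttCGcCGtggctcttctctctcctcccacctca
Lmx1b, chr3:37338508-37338807, minus strand: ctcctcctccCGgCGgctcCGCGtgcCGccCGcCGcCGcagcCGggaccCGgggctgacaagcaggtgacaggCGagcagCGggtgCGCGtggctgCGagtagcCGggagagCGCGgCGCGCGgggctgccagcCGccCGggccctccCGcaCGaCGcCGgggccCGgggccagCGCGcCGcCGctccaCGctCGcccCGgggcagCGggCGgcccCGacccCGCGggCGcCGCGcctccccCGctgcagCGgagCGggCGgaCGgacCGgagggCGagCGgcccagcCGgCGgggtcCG
Sox6, chr1:179665322-179665621, minus strand: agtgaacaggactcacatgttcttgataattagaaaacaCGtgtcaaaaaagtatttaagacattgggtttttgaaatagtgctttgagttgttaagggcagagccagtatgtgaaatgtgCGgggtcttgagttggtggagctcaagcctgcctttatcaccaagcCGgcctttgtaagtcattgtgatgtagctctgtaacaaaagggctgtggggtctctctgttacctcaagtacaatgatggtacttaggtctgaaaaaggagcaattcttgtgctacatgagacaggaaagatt

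The windows differed widely in base composition. The Lmx1b window held 54 CpG and 84.7% GC, En2 33 CpG, and Pitx3 and En1 25 CpG each. Lmx1a held 12 CpG, Foxa2 8, Nr4a2 5 and Sox6 3, with 42.0% GC in Sox6. Across 33469 promoter windows of the same length, all windows of a symbol included, the median was 7 CpG and 51.7% GC. Of these, 16.6% held 25 or more CpG. On either strand, the homeodomain core TAATTA was found in the Sox6 window alone among the 8 and in 5.36% of all windows. TAATCC, the core bound by Pitx-type homeodomains, was found in the En1 window alone and in 7.17% of all. AAAGGTCA, a nuclear receptor half-site bound by Nr4a proteins, and TGTTTAC, a forkhead core, were in none of the 8 and in 1.43% and 3.78% of all windows. None of these motifs contains another, and a match is only a description of these letters.

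Pitx3, the homeodomain factor most closely tied to the mature dopamine phenotype, was highest in the dopamine gate. Its level there was 49.2 CPM, 70.3, 56.4 and 51.4 CPM in the 4 libraries, a mean of 56.8 CPM ± 9.47 (SD, n = 4). The dopamine libraries all lay above every library of every other gate. The Slc26a7-Gad2 gate followed at 16.6 CPM ± 11.2, on 11 UMIs, and the Th-C1ql1 gate at 17.7 CPM ± 17.4, on 10 UMIs, with overlapping ranges. GABA nuclei had 0.38 CPM and glutamate nuclei 1.29 CPM. No Pitx3 UMI was found in 1247 precursor nuclei, a count that allows a share of up to 0.241% of nuclei with a UMI. Of all 300 Pitx3 UMIs kept, 58.3% lay in the dopamine gate, which made up 1.47% of the nuclei.

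Nr4a2, an orphan nuclear receptor that activates Th and Slc6a3, had a flatter distribution over the neuron gates. It was found at 46.5, 61.0, 52.7 and 50.1 CPM in the dopamine libraries. In the Slc26a7-Gad2 gate it was at 65.1, 65.7, 83.3 and 91.3 CPM, and in the Th-C1ql1 gate at 83.3, 92.2, 83.2 and 53.5 CPM. Every Slc26a7-Gad2 library thus exceeded the dopamine libraries, while the Th-C1ql1 range overlapped theirs. Glutamate nuclei held 22.2 CPM ± 6.00 (SD, n = 4), astrocytes 7.53 CPM and GABA nuclei 1.61 CPM.

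The LIM homeodomain factors Lmx1a and Lmx1b specify floor plate progenitors and regulate mitochondrial genes in the adult. Lmx1a was at 184.6, 229.5, 153.3 and 167.1 CPM in the dopamine libraries. It was higher by mean in the Slc26a7-Gad2 gate, at 281.6 CPM ± 76.3, and in the Th-C1ql1 gate, at 321.2 CPM ± 102 (SD, n = 4). Glutamate nuclei, which were chosen to have no Th, still held 101.9, 162.5, 130.8 and 181.2 CPM, a range that overlapped the dopamine range. GABA nuclei held 5.44 CPM. Lmx1b was at 97.1, 110.1, 118.9 and 98.9 CPM in dopamine nuclei, 54.2 to 96.4 CPM in the Slc26a7-Gad2 gate, 42.6 to 83.3 CPM in the Th-C1ql1 gate and 20.6 to 37.3 CPM in glutamate nuclei. The dopamine libraries lay above all others for Lmx1b, and the ranges of the Slc26a7-Gad2 and Th-C1ql1 gates overlapped.

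The forkhead factors Foxa1 and Foxa2 open chromatin in floor plate cells and act upstream of Nr4a2 and Lmx1a. Foxa2 was at 24.6, 26.5, 18.4 and 15.4 CPM in dopamine nuclei. Its mean was 37.3 CPM ± 22.8 in the Slc26a7-Gad2 gate and 40.5 CPM ± 20.3 in the Th-C1ql1 gate, on 23 UMIs each, and these ranges spanned the dopamine values. Glutamate nuclei held 7.18 CPM and GABA nuclei 3.74 CPM. Foxa1 was nearly undetected, with 26 UMIs in all kept nuclei, 3 of them in the dopamine gate.

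The engrailed factors did not share one pattern. En1 was at 24.6, 30.5, 30.7 and 25.7 CPM in dopamine nuclei and at 3.22 CPM in GABA and 2.91 CPM in glutamate nuclei. En2 was at 21.9, 23.9, 30.7 and 16.7 CPM in dopamine nuclei and at 23.6, 15.9, 15.6 and 19.2 CPM in GABA nuclei, so these gates overlapped. Glutamate nuclei held 2.57 CPM of En2. More En2 UMIs lay in the GABA gate (31.8% of 560) than in the dopamine gate (12.9%), since GABA nuclei were more numerous.

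Otx2 had no UMI in any of the 21606 barcodes. For the 304 dopamine nuclei this allows a share of up to 0.987% of nuclei with a UMI, counting error only. Whether the gene model used for counting captured Otx2 reads was not tested, so the bound is on counted UMIs and not on expression. The co-detection of Sox6 with Otx2 therefore could not be computed.

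Sox6, an HMG-box factor, was highest outside neurons. Its level was 3394, 3364, 3278 and 3620 CPM in precursor nuclei and 1414, 1551, 1680 and 1654 CPM in astrocytes. Every precursor library was above every astrocyte library. GABA nuclei held 176.9 CPM ± 33.9, dopamine nuclei 103.9 CPM ± 50.7 and glutamate nuclei 46.1 CPM ± 10.0 (SD, n = 4). The dopamine libraries spread widely, at 113.5, 90.2, 166.7 and 45.0 CPM, and overlapped both other gates. Oligodendrocyte nuclei held 16.5 CPM. Precursors carried 36.4% and astrocytes 21.0% of the 35941 Sox6 UMIs, and dopamine nuclei 0.896%.

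**Figure D1:**
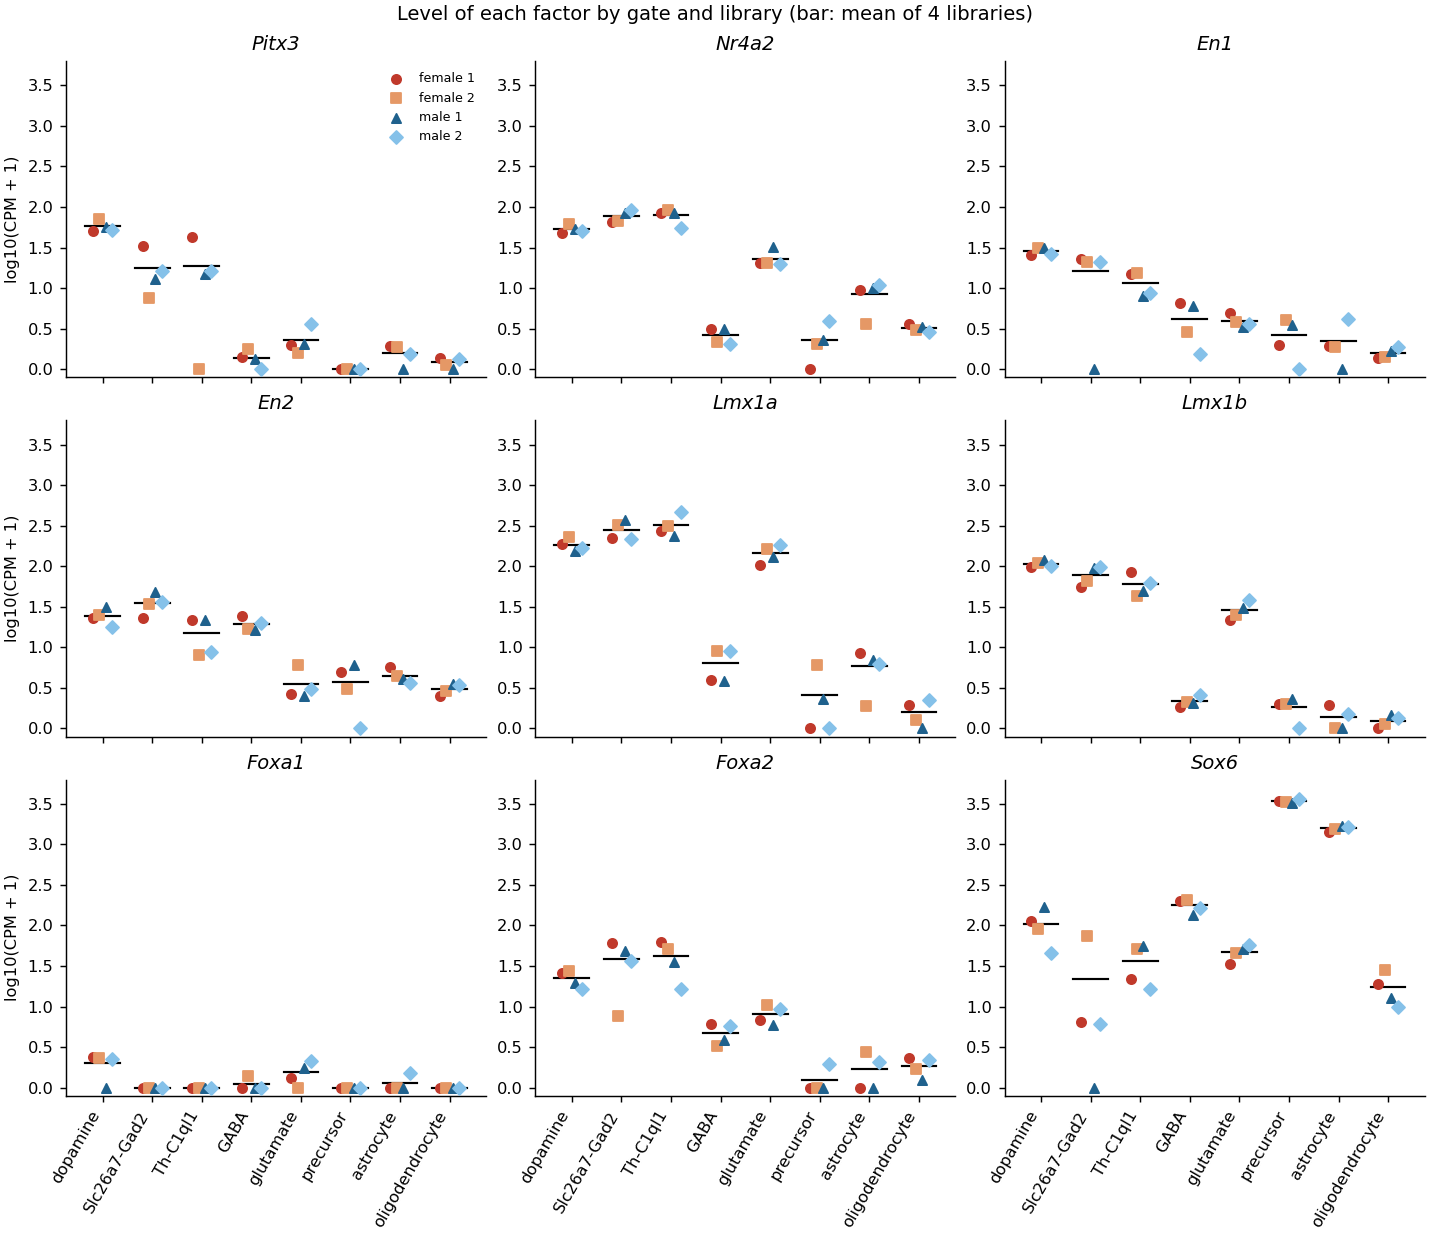
Level of each factor in 8 gates as log10(CPM + 1), 1 point per library and a bar at the mean of 4 libraries; Otx2 is left out because it had no UMI. Pitx3 is highest in the dopamine gate, Lmx1a is shared by 4 neuron gates, and Sox6 is highest in precursor and astrocyte nuclei.

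Differences between gates were tested with edgeR's quasi-likelihood test on UMIs summed per library and gate, with the library as a block and Benjamini-Hochberg adjustment over all genes tested. Of the 10 factors, 8 passed the filter on low counts in the neuron fit, all but Foxa1 and Otx2. Against GABA nuclei, 6 of the 8 were higher in dopamine nuclei and 1 was lower, where 32.6% of 10123 genes were called. Pitx3 was higher by 6.88 ± 0.41 on the log2 scale (SE; adjusted p = 8.5e-16), Lmx1b by 6.50 ± 0.24, Lmx1a by 5.17 ± 0.21 and Nr4a2 by 5.01 ± 0.27, each in 4 of 4 libraries. En1 was higher by 3.11 ± 0.33 and Foxa2 by 2.59 ± 0.36. En2 differed by 0.42 ± 0.25 and was not called (edgeR adjusted p = 0.20). Sox6 fell by 0.69 ± 0.21 on the log2 scale (edgeR adjusted p = 0.0094), lower in 3 of 4 libraries. That Sox6 call was lost without female 2 (edgeR adjusted p = 0.070), without male 2 (0.096) and with DESeq2 (0.32). The median over the 8 was 4.06, against -0.01 over all genes. Pitx3 and Lmx1b, at 0.38 and 1.16 CPM in GABA nuclei, could pass the filter only through another gate. Their direction in this comparison was then largely fixed in advance.

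Against glutamate nuclei all 8 were higher in dopamine nuclei, where 27.4% of 10123 genes were called. Pitx3 was higher by 5.31 ± 0.33, En2 by 3.39 ± 0.34 and En1 by 3.31 ± 0.33 on the log2 scale. Lmx1b was higher by 1.99 ± 0.14, Foxa2 by 1.66 ± 0.31 and Nr4a2 by 1.29 ± 0.17. Sox6 was 2.30-fold higher, in 3 of 4 libraries (edgeR adjusted p = 0.00012; DESeq2 adjusted p = 0.11). Lmx1a was the smallest difference, 0.42 ± 0.13 (edgeR adjusted p = 0.012), higher in 3 of 4 libraries. It was not called without female 1 (adjusted p = 0.20) or female 2 (0.063), or with DESeq2 (0.081). The median over the 8 was 1.82, against -0.01 over all genes.

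The dopamine and Slc26a7-Gad2 gates differed in 2 of 8 factors, where 15.2% of 10123 genes were called. Pitx3 was higher in dopamine nuclei by 1.73 ± 0.46 (edgeR adjusted p = 0.0075), in 4 of 4 libraries. Without female 2 its difference was 1.36 (adjusted p = 0.069). Sox6 was higher by 2.33 ± 0.61 (edgeR adjusted p = 0.0061), but 10 of the 13 Sox6 UMIs of the Slc26a7-Gad2 gate lay in 1 nucleus. Without female 2, which held that nucleus, the difference was 4.66, and without female 1 it was 1.89 (adjusted p = 0.054). With a gate minimum of 1 UMI the Sox6 difference changed sign, to -0.58 (adjusted p = 0.42). Nr4a2 (-0.54 ± 0.25), Lmx1a (-0.48 ± 0.19), Foxa2 (-0.72 ± 0.44), En2 (-0.43 ± 0.42), En1 (0.69 ± 0.50) and Lmx1b (0.53 ± 0.23) were not called. The median over the 8 was 0.05, against 0.02 over all genes. Lmx1a was called lower in dopamine nuclei in 3 alternatives, among them without male 2 (-0.59, adjusted p = 0.044).

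Compared with the Th-C1ql1 gate, 3 factors were higher and 1 lower in dopamine nuclei, where 13.1% of 10123 genes were called. Pitx3 was higher by 1.77 ± 0.48 (edgeR adjusted p = 0.0092), Lmx1b by 0.95 ± 0.25 (0.0077) and Sox6 by 1.64 ± 0.54 (0.040), each in 4 of 4 libraries. Lmx1a fell by 0.69 ± 0.19 on the log2 scale (edgeR adjusted p = 0.0090), lower in 4 of 4 libraries. Leaving out a single library left 1 to 3 of these calls: Pitx3 was lost without female 2 or male 1, Lmx1b without either of the same, Sox6 without female 1 or male 1, and Lmx1a without male 2. Nr4a2, Foxa2, En1 and En2 were not called, and the median over the 8 was 0.88, against 0.03 over all genes.

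The Slc26a7-Gad2 gate was also set against the GABA gate, and the Th-C1ql1 gate against the glutamate gate. In Slc26a7-Gad2 minus GABA, 6 of 8 factors were higher and 1 lower, where 9.74% of 10123 genes were called. Lmx1b was higher by 5.98 ± 0.41, Lmx1a by 5.64 ± 0.28, Nr4a2 by 5.55 ± 0.38, Pitx3 by 5.15 ± 0.90, Foxa2 by 3.31 ± 0.52 and En1 by 2.42 ± 0.66. En1 was at 0 in male 1, on 7 nuclei, and its call was lost when any of the other 3 libraries was left out. Sox6 fell by 3.02 ± 0.54, though by only 0.14 with a gate minimum of 1 UMI (adjusted p = 0.91), and En2 was not called. In Th-C1ql1 minus glutamate, 6 of 8 were higher, where 4.14% of 10123 genes were called: Pitx3 by 3.54 ± 0.79, En2 by 2.58 ± 0.74, Foxa2 by 2.50 ± 0.47, Nr4a2 by 1.76 ± 0.27, Lmx1a by 1.11 ± 0.18 and Lmx1b by 1.04 ± 0.29. Leaving out 1 library left 3 to 5 of the 6, and without female 1 the calls of Pitx3, En2 and Lmx1b were lost. The 6 neuron comparisons came from 1 fit and share gates, so they are not independent of each other.

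**Figure D2:**
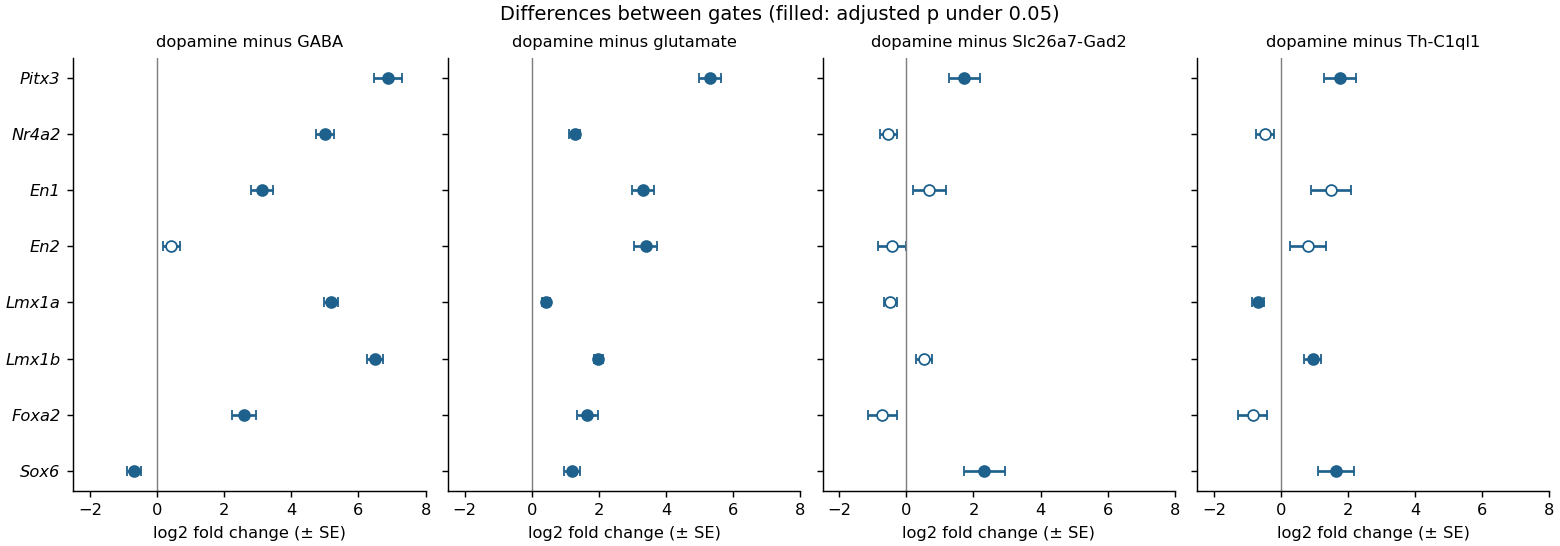
Log2 fold change (± SE) of 8 factors between the dopamine gate and 4 other neuron gates, filled where the edgeR adjusted p was under 0.05. Against GABA and glutamate nuclei nearly all points lie to the right of 0, while against the Slc26a7-Gad2 and Th-C1ql1 gates Pitx3 and Sox6 are the factors called in both panels.

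In the glial fit only Sox6 passed the filter on low counts. It was higher in precursor than in oligodendrocyte nuclei by 7.50 ± 0.19 on the log2 scale, where 65.8% of 10345 genes were called. Astrocytes exceeded oligodendrocytes by 6.48 ± 0.19, where 69.3% were called. Precursors exceeded astrocytes by 1.02 ± 0.14 (edgeR adjusted p = 5.3e-07), where 55.5% were called. All 3 differences had the same direction in 4 of 4 libraries. Among precursor nuclei 1228 of 1247 had a Sox6 UMI, with a median of 8 UMIs in those nuclei.

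Other genes of the lineage were counted in 4 fixed lists. Of 14 dopamine phenotype genes 13 were tested, and all 13 were higher in dopamine than in GABA nuclei, where 32.6% of 10123 genes were called. Their median was 4.53 against -0.01 over all genes. The lowest p-values belonged to Ddc, the aromatic amino acid decarboxylase (1542 against 17.7 CPM), and Chrnb3, a nicotinic receptor subunit (162.8 against 0.95 CPM). Slc18a2, the vesicular monoamine transporter, was at 402.3 against 17.8 CPM and Aldh1a1, a retinaldehyde dehydrogenase, at 375.9 against 5.30 CPM. A gene near 0 in GABA nuclei, such as Chrnb3, could pass the filter on low counts only through another gate. Its direction was then largely fixed in advance, so the count of 13 is a description. Against glutamate nuclei 12 were higher and 1, the neurotrophin gene Bdnf, was lower (57.2 against 109.6 CPM), where 27.4% of all genes were called. Against the Slc26a7-Gad2 gate 10 of these 13 were higher and 3 were not called, where 15.2% of all genes were called. Against the Th-C1ql1 gate 12 were higher and 1 was not called, where 13.1% of all genes were called. Gch1, which makes the cofactor of Th, was at 142.0 CPM in dopamine nuclei and 21.8 CPM in the Slc26a7-Gad2 gate.

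Among 17 other regulators 11 were tested against GABA nuclei, of which 8 were higher and 3 lower in dopamine nuclei (median 1.40). Over all 10123 genes 32.6% were called. Ebf3 rose by 2.89 ± 0.15, Satb1 by 2.09 ± 0.13 and Bcl11a by 1.92 ± 0.14 on the log2 scale. The orphan receptors Nr2f1 and Nr2f2 and the protease Corin, a floor plate marker, made up the 3 that were lower. Ebf3 was lower in dopamine nuclei than in both small gates. It was at 576.3 CPM in the Slc26a7-Gad2 gate, 303.3 CPM in the Th-C1ql1 gate (-0.65 ± 0.18, edgeR adjusted p = 0.011) and 179.6 CPM in dopamine nuclei, and the difference from the Slc26a7-Gad2 gate was -1.59 ± 0.15 (edgeR adjusted p = 5.6e-10). Satb1 was higher in dopamine than in Slc26a7-Gad2 nuclei by 2.92 ± 0.30. Neurog2, Msx1, Wnt1, Shh and Ferd3l, genes of the embryonic floor plate and its progenitors, had too few counts to be tested.

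Against GABA nuclei, regional factors of other midbrain neurons went the other way. Of 22 genes 9 were tested against GABA nuclei, of which 7 were lower, Foxp2 was higher and Sim1 was not called. Over all 10123 genes 32.6% were called. The median of the 9 was -6.22, or -4.85 with Sox14, which had no UMI in the dopamine gate, set at its bound of at least 28.8-fold lower. Meis2 was at 0.34 CPM in dopamine and 610.6 CPM in GABA nuclei, Pax3 at 0.92 against 84.0 CPM and Pax7 at 0.32 against 58.4 CPM. Foxp2 was at 1538 CPM in dopamine, 1754 CPM in Slc26a7-Gad2 and 212.2 CPM in GABA nuclei. Between the dopamine and Slc26a7-Gad2 gates Foxp2 differed by -0.14 ± 0.12 (edgeR adjusted p = 0.52). A gene near 0 in dopamine nuclei, such as Meis2, could pass the filter on low counts only through another gate. Its direction was then largely fixed in advance, so the count of 7 is a description. Against glutamate nuclei 3 of the 9 were lower, 1 was higher and 5 were not called, where 27.4% of all genes were called. In dopamine minus Slc26a7-Gad2 all 9 were not called, where 15.2% of all genes were called. In dopamine minus Th-C1ql1 1 was higher and 8 were not called, where 13.1% of all genes were called. Of 15 subtype genes 12 were tested against GABA nuclei, where 32.6% of 10123 genes were called. In dopamine nuclei 11 were higher and 1, the vesicular GABA transporter Slc32a1, was lower. Where a subtype gene was near 0 in GABA nuclei, its direction was also largely fixed in advance. Tacr3, the neurokinin 3 receptor, was at 233.4 CPM in the dopamine gate, 7.47 CPM in the Slc26a7-Gad2 and 8.85 CPM in the Th-C1ql1 gate. That contrast is a description, since a gene so low in the small gates could pass the filter only through another gate.

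Detection was next counted per nucleus. In the dopamine gate Lmx1a was detected in 69.1% ± 6.60 of nuclei, Lmx1b in 56.1% ± 4.06, Pitx3 in 38.6% ± 7.45, Nr4a2 in 36.3% ± 6.05, En1 in 23.4% ± 2.29, and Foxa2 and En2 in 18.9% ± 6.74 and 18.8% ± 4.58 (SD, n = 4 libraries). Sox6 was detected in 21.7% ± 8.48. The same shares in oligodendrocyte nuclei, which served as the background, were 0.116% for Lmx1a, 0.0704% for Lmx1b, 0.0521% for Pitx3, 0.609% for Nr4a2, 0.163% for En1, 0.568% for En2, 0.197% for Foxa2 and 1.64% for Sox6, at a median of 2314 UMIs. After thinning every nucleus to 2000 UMIs, which all dopamine nuclei reached and 3282 oligodendrocyte nuclei did not, the dopamine shares were 28.5% for Lmx1a, 17.7% for Lmx1b, 10.2% for Pitx3 and 9.96% for Nr4a2. The oligodendrocyte shares at that depth were 0.0973%, 0.0434%, 0.0454% and 0.501%. A nucleus without a UMI of a factor is therefore not a nucleus shown to lack it.

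Counted together at 2000 UMIs, dopamine nuclei had on average 0.923 ± 0.087 of the 10 factors detected, Slc26a7-Gad2 nuclei 0.939 ± 0.088 and Th-C1ql1 nuclei 0.940 ± 0.12. Glutamate nuclei had 0.364 ± 0.065 and GABA nuclei 0.167 ± 0.029. Dopamine exceeded GABA nuclei by 0.756 (0.670 to 0.830 over libraries) and glutamate nuclei by 0.559 (0.391 to 0.631), in 4 of 4 libraries. The exact two-sided sign-flip test over libraries gave p = 0.12 for each, the smallest that 4 libraries allow. Without Sox6 the dopamine and precursor means were 0.817 and 0.018. Precursors reached 1.01 with Sox6 included.

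Among Pitx3, Nr4a2, Lmx1a and Lmx1b, all 4 were seen together in 29 of 304 nuclei (9.54%) at full depth, 3 in 69, 2 in 106, 1 in 70 and none in 30. In the Slc26a7-Gad2 gate 4 of 69 nuclei had all 4 and in the Th-C1ql1 gate 1 of 59. Among 1359 glutamate nuclei 3 had all 4, 67 had 3 and 790 had none. No GABA nucleus of 1165 had 3 or more, which allows a share of up to 0.258%.

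**Figure D3:**
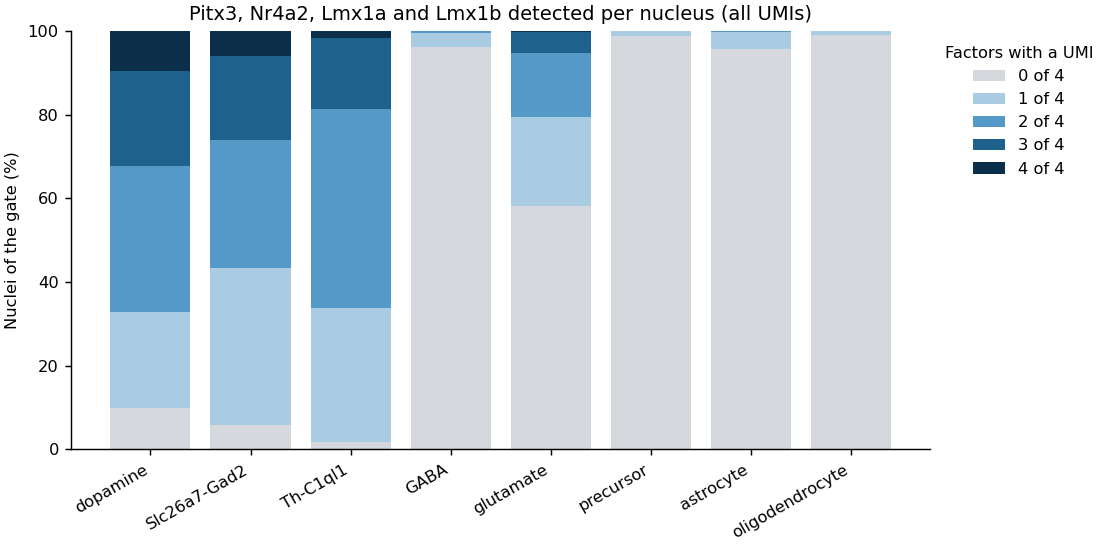
Share of nuclei of each gate (%) with 0, 1, 2, 3 or 4 of Pitx3, Nr4a2, Lmx1a and Lmx1b detected at full depth. The dopamine, Slc26a7-Gad2 and Th-C1ql1 bars hold 9.87%, 5.80% and 1.70% of nuclei with none, and the GABA bar 96.3%.

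Within the dopamine gate, co-detection of factors was close to what their separate shares give. Over the 28 pairs with at least 5 expected nuclei, the ratio of observed to expected nuclei (within libraries, full depth) had a median of 1.07 and ranged from 0.85 to 1.83. Thinned to 2000 UMIs the median was 1.01. Lmx1a and Lmx1b were found together in 126 nuclei where 117.9 were expected, and Pitx3 and Nr4a2 in 46 where 42.5 were expected. The highest ratio of the 28 pairs belonged to the paralogs En1 and En2, with 24 nuclei against 13.1 expected. After thinning it was 1.80, on only 1.39 nuclei against 0.774 expected, and above expectation in 3 of 4 libraries. Lmx1b and Sox6 were found together in 47 nuclei against 36.4 expected.

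In glutamate nuclei some pairs were found together more often than expected. Lmx1a and Lmx1b were found together in 197 nuclei where 84.8 were expected (ratio 2.32), Nr4a2 and Lmx1a in 138 against 69.5 (1.99), and Nr4a2 and Lmx1b in 72 against 29.9 (2.41). After thinning the ratios were 2.28, 2.01 and 2.74, each above 1 in 4 of 4 libraries. Lmx1a and Sox6 were found together in 48 nuclei against 36.1, with a thinned ratio of 1.52, above 1 in 4 of 4 libraries. Over the 12 pairs with at least 5 expected nuclei the median ratio was 1.32, and 9 were above 1. The 366 glutamate nuclei with at least 2 Lmx1a UMIs held 44.3 CPM ± 17.7 of Nr4a2 and 64.1 CPM ± 9.92 of Lmx1b, against 10.1 CPM ± 2.00 and 4.59 CPM ± 3.20 in the 854 nuclei without Lmx1a (SD, n = 4). Their Pitx3 level was 3.76 CPM and their Slc6a3 level 1.61 CPM. Their Sox6 level was 91.3 CPM ± 23.25, against 29.2 CPM ± 18.6 without Lmx1a. These nuclei made up 18.9%, 30.0%, 28.6% and 30.5% of the gate in female 1, female 2, male 1 and male 2, and their median depth was 9640 UMIs against 7808 in those without Lmx1a. In the GABA gate the only pair with 5 expected nuclei was En2 with Sox6, found in 37 nuclei against 19.5 expected, above expectation in 4 of 4 libraries.

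**Figure D4:**
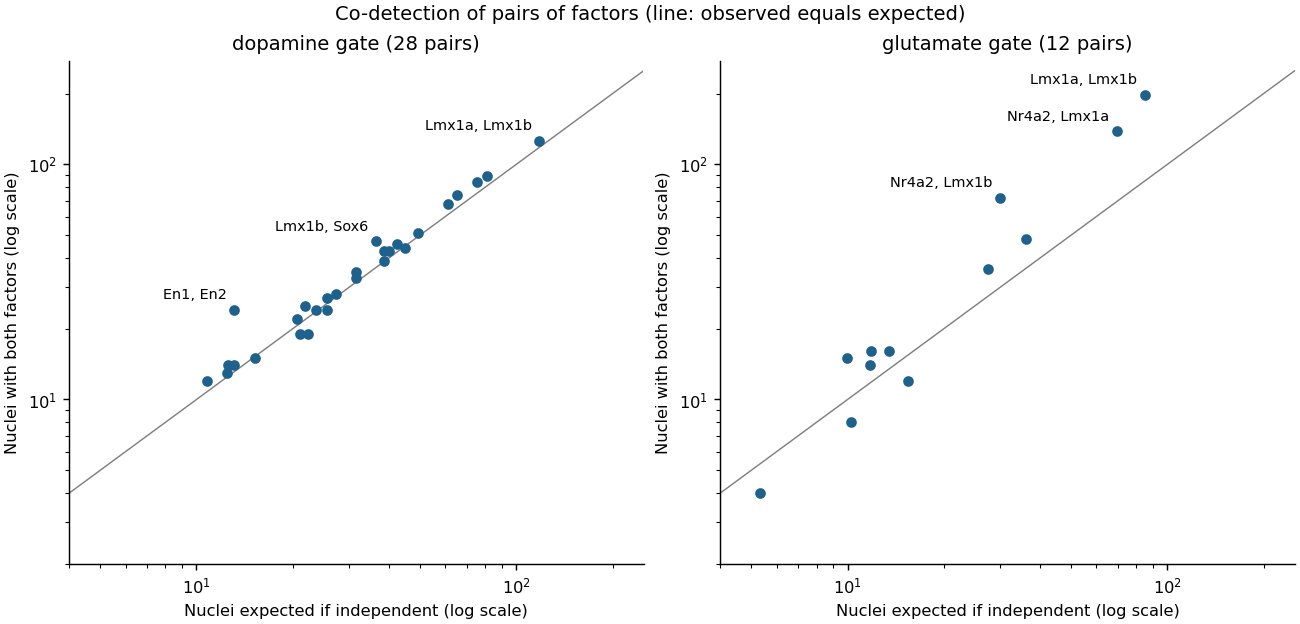
Number of nuclei with both factors of a pair against the number expected from their separate shares within each library, on log axes, for the dopamine gate (28 pairs) and the glutamate gate (12 pairs). Dopamine pairs lie along the line of equality except En1 with En2, while the 3 pairs among Nr4a2, Lmx1a and Lmx1b lie about 2-fold above it in glutamate nuclei.

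Sox6 was unevenly spread among dopamine nuclei. Only 64 of 304 had a Sox6 UMI, and 21 nuclei with at least 5 UMIs held 76.4% of the 322 UMIs. The tenth of dopamine nuclei with the most UMIs of a factor held 86.0% of the Sox6 UMIs but 36.6% of the Lmx1a UMIs. In the GABA gate 128 of 1165 nuclei had at least 2 Sox6 UMIs. Those 128 had 155.5 CPM of Pax7 and 107.8 CPM of Meis2, against 46.1 and 684.5 CPM in the 1008 nuclei without Sox6. They also had 76.5 CPM of the precursor marker Vcan against 16.0 CPM, with Cspg4 at 4.35 and Gpr17 at 0.87 CPM, and the part of precursor RNA was not tested.

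Dopamine nuclei were then split by whether a factor had a UMI, for the 7 factors with at least 10 nuclei of each kind in every library. The Sox6 split gave the most calls: 152 of 6850 genes (2.22%), 79 higher and 73 lower in nuclei with Sox6. Pex5l, a regulator of HCN channels, was at 1119, 1066, 1602 and 1090 CPM with Sox6 and 325.6, 498.8, 231.2 and 489.9 CPM without it. The sums per library did not overlap between the 2 groups, and the difference was 1.75 ± 0.18 on the log2 scale (edgeR adjusted p = 4.2e-07). Hs6st3, a heparan sulfate sulfotransferase, was higher by 2.07 ± 0.27, Lmo7 by 1.73 ± 0.36 and the potassium channel gene Kcnq5 by 1.54 ± 0.40. LOC102553088 was higher by 1.97 ± 0.42. Kcnq5 rested on female 2, without which its difference was 0.54 (adjusted p = 0.85). Without male 1, LOC102553088 (adjusted p = 0.18), Lmo7 (0.28) and, of the genes below, Neurod6 (0.078) were not called.

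Grp, gastrin-releasing peptide, had no UMI in the 64 nuclei with Sox6 and 91 UMIs in the 240 without it, at least 10.9-fold lower against a floor of 3 counts over the group (edgeR adjusted p = 8.0e-05). Klhl14 fell by 3.92 ± 0.65, Nid1, a basement membrane protein, by 2.98 ± 0.56, Neurod6, a bHLH factor of VTA dopamine neurons, by 2.43 ± 0.42 and Trpc4, a cation channel, by 2.17 ± 0.35 on the log2 scale. Neurod6 was at 6.62, 28.2, 6.65 and 8.86 CPM with Sox6 and at 65.5, 53.4, 104.9 and 75.1 CPM without it. Of the 13 dopamine phenotype genes tested, Aldh1a1 fell by 2.05 ± 0.22 and Chrnb3, Drd2 and Ptpru were higher, by 0.74 ± 0.18, 0.59 ± 0.16 and 0.59 ± 0.16. Of 9 subtype genes tested, 1 was higher, 3 (Grp, Neurod6 and Aldh1a1) were lower and 5 were not called, where 2.22% of 6850 genes were called. The 1 that was higher was Kcnj6, the GIRK2 channel gene, by 0.88 ± 0.20. Ebf3 fell by 0.89 ± 0.20, and Pbx3 and Satb1 were higher by 0.59 ± 0.14 and 0.62 ± 0.17.

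Several measures moved with the Sox6 split. Nuclei with Sox6 had a median of 10920 UMIs against 8353 without. Pdgfra was at 12.3 against 0.883 CPM, and the 3 other precursor markers summed to 16.1 to 43.2 against 3.45 to 17.5 CPM over libraries, with Cspg4 and Gpr17 at 0 in both groups. Without the nuclei that had a Pdgfra or Vcan UMI, 110 genes were called, 103 of them among the 152. With Sox6 at 2 or more UMIs (41 nuclei) against 0, 149 genes were called, of which 111 were among the 152. DESeq2 called 34, all among the 152, and leaving out male 1 left 50, of which 46 were among them. Splitting by detection after thinning to 2000 UMIs gave 52 calls, 39 of them shared, and a gate minimum of 3 UMIs gave 62, 58 of them shared. Slc17a6, the glutamate transporter gene, was at 13.5 CPM with and 28.3 CPM without Sox6, and at 1.91 CPM in the 41 nuclei with at least 2 UMIs. As a gate gene it was not tested.

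**Figure D5:**
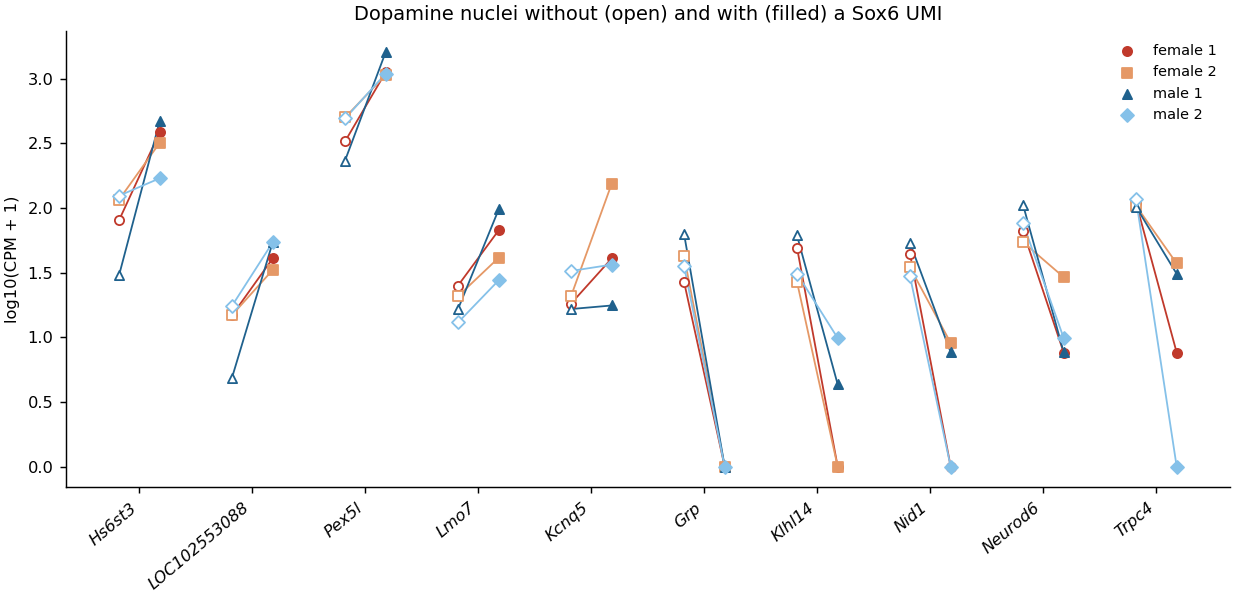
Level, as log10(CPM + 1), of 10 genes called by Sox6 detection in dopamine nuclei, with 1 line per library joining nuclei without (open) to nuclei with (filled) a Sox6 UMI. The 5 genes on the left rose and the 5 on the right fell. They were chosen among called genes that moved the same way in 4 of 4 libraries. Grp had no UMI in any of the 4 sums with Sox6.

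The splits by the other factors gave fewer calls. By Lmx1b, 51 of 6723 genes (0.759%) were called, 30 higher and 21 lower. Dscaml1, a cell adhesion gene, was higher by 1.33 ± 0.24 (134.6 against 56.1 CPM), and Chrna7, a nicotinic subunit, by 1.17 ± 0.27. The neuropeptide gene Nts fell by 2.21 ± 0.31 (35.1 against 168.9 CPM), Sox5, a relative of Sox6, by 2.13 ± 0.40, Sorcs1 by 1.61 ± 0.23 and the peptide gene Adcyap1 by 1.31 ± 0.29. Eif2ak2, Spag16 and Pdlim5 were also higher, by 1.26, 1.25 and 1.01, and Chga, a granule protein, fell by 1.05. DESeq2 called 19 genes, 30 were called without female 2, and 1 was called when detection was read after thinning. With doublets kept 99 were called, with no filter on low counts 111, and with a gate minimum of 3 UMIs 29. Nuclei with Lmx1b had a median of 10570 UMIs against 7448 without, and Chrna7, Eif2ak2, Pdlim5, Sox5, Adcyap1 and Chga each lost their call without at least 1 library. By Pitx3, 37 of 6752 genes (0.548%) were called, 13 higher and 24 lower. Sntb1 was higher by 1.59 ± 0.33, with Tll1, Kif26b, Slc35f1 and Caln1 higher by 0.87, 0.83, 0.74 and 0.70. Nts fell here too, by 2.65 ± 0.41 (18.9 against 132.3 CPM). Sema5b, Adamtsl3, Fign and Gulp1 differed by -1.78, -1.69, -1.67 and -1.61. DESeq2 called 6 genes, 64 were called without female 2 and 18 without male 2, and none when detection was read after thinning. A gate minimum of 3 UMIs gave 22, nuclei in more than 1 gate kept gave 64, and no filter on low counts gave 85. Nuclei with Pitx3 had a median of 10760 UMIs against 7608 without. Sntb1, Sema5b, Adamtsl3, Fign and Gulp1 each lost their call without at least 1 library.

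By Lmx1a, 18 of 6453 genes (0.279%) were called, 14 higher and 4 lower. Aldh1a1 was at 270.2 CPM ± 90.8 with Lmx1a and 676.4 CPM ± 286 without it (SD, n = 4), a difference of -1.30 ± 0.15 (edgeR adjusted p = 2.8e-05), lower in 4 of 4 libraries. Grp fell by 1.87 ± 0.37 and Ebf1, a helix-loop-helix factor, by 0.96 ± 0.15. Ldb2, a LIM domain-binding cofactor, was higher by 1.92 ± 0.37, Ano3 by 1.63 ± 0.31, Pde11a by 1.27 ± 0.27, the neurotrophin gene Ntf3 by 1.23 ± 0.25 and Shisa6 by 1.16 ± 0.20. Ldb2, Ano3, Pde11a, Ntf3 and Grp each lost their call without at least 1 library. DESeq2 called 8 genes, 7 were called without female 1, and 11 when detection was read after thinning. With doublets kept 36 were called, with nuclei in more than 1 gate kept 57, and with no filter on low counts 87. Nuclei with Lmx1a had a median of 9876 UMIs against 6802 without. Aldh1a1 and Grp also fell in the Sox6 split, which is made from the same nuclei.

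No gene was called by edgeR for Nr4a2 (0% of 6579), En1 (0% of 6855) or En2 (0% of 6848), and 325, 301 and 234 genes had an unadjusted p under 0.05. DESeq2 called 0 in each, and edgeR called 18, 2 and 1 when detection was read after thinning and 33, 16 and 11 with no filter on low counts. With nuclei in more than 1 gate kept it called 4 for Nr4a2. Leaving out male 1 gave 26, 11 and 1 calls, leaving out male 2 gave 26 for Nr4a2, leaving out female 2 gave 7 each for En1 and En2, and leaving out female 1 gave 1 each for En1 and En2. Each split tested 5 or 6 of the other factors. Over the 7 splits edgeR called none of the other factors, and 4 of their differences had an unadjusted p under 0.05. These were Lmx1a by Nr4a2 (0.47 ± 0.17), En2 by En1 (0.90 ± 0.39), En1 by En2 (0.91 ± 0.37) and Lmx1b by Sox6 (0.56 ± 0.23, adjusted p = 0.31). The 2 between En1 and En2 are 1 relation read both ways. In the Sox6 split 723 of all 6850 genes had an unadjusted p under 0.05. Nuclei with Nr4a2 had a median of 10230 UMIs against 8190 without. The part of depth in the splits was tested only through the thinned detection, which rested on a single random draw per nucleus.

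Across 32 sums of 4 libraries and 8 gates, the gene with the level pattern most like Pitx3 was Gch1 (Pearson r = 0.955 of log2(CPM + 1), among 10037 genes with a mean of at least 10 CPM), followed by Tmem207 (0.891) and Ddc (0.884). Nr4a2 was most like Lmx1a (0.931), Nrn1 (0.924) and Lmx1b (0.914). Lmx1a was most like Nrn1 (0.959) and Lmx1b (0.956), and Lmx1b like Lmx1a, Ddc (0.946) and Bnc2 (0.940). En1 was most like Ddc (0.818) and En2 like the nicotinic subunit gene Chrna6 (0.840) and Slc18a2 (0.823). Foxa2 was most like AABR07054126.1 (0.944) and the mechanosensitive channel gene Piezo2 (0.930). Sox6 was most like Dnah5 (0.916), the glial receptor gene Mertk (0.894) and Gpt2 (0.892). These are descriptions, since sums of a library share its depth and its RNA pool.

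Nuclei near the gate limits were intermediate for Pitx3. Among nuclei with at least 2 Th UMIs, Pitx3 was at 13.9 CPM where Slc6a3 was at 0, 27.2 CPM at 1 UMI, 33.1 CPM at 2 and 57.4 CPM at 3 or more. Nr4a2 was at 63.9, 50.9, 51.1 and 55.8 CPM and Lmx1a at 269.1, 288.5, 267.5 and 188.5 CPM in the same groups. The groups just outside and just inside held 42 and 44 nuclei. Nuclei were pooled over libraries here, so these levels have no spread, and their differences were not tested.

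Female and male libraries were compared within each gate by edgeR, with 2 libraries per sex. Of 29 factor and gate pairs tested none was called, also with DESeq2, and the lowest edgeR adjusted p was 0.36. The background of calls was 0.0665% in dopamine, 0.0239% in Slc26a7-Gad2, 0.0542% in Th-C1ql1, 0.0931% in GABA, 0.0567% in glutamate, 0.127% in precursor, 0.0856% in astrocyte and 0.0521% in oligodendrocyte nuclei. An unadjusted p under 0.05 was found for 5 pairs. Sox6 was higher in female oligodendrocyte nuclei, at 18.2 and 27.3 CPM against 11.6 and 9.02 CPM, a difference of 1.19 ± 0.28. Without female 1 it was 1.46 (edgeR adjusted p = 1.4e-05), and with no filter on low counts it was 1.21 (0.00025). Of its 399 UMIs in that gate, 252 lay in 13 nuclei with 5 or more. In GABA nuclei the Sox6 difference was 0.48 ± 0.14, in glutamate nuclei -0.49 ± 0.19, and the sexes did not overlap in either. The difference between these effects was -0.98 ± 0.34 (unadjusted p = 0.0070, edgeR adjusted p = 1), a comparison in which 1 of 10123 genes was called. That comparison was added after the data were seen. Lmx1b was lower in female glutamate nuclei by -0.60 ± 0.22, and Lmx1a was at 184.6 and 229.5 CPM in female against 153.3 and 167.1 CPM in male dopamine nuclei.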

How the data were processed

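The deposited files hold, per library, raw UMI counts per gene and barcode made by the authors; the software version in the file headers is 3.0.2, and the submitters' processing notes name Cell Ranger and genome build rn6. Counts were used as deposited. Barcodes with at least 200 genes and at most 5% mitochondrial UMIs were kept, 6 failed, and the barcodes with the highest Scrublet scores (scanpy 1.11.5) were removed as doublets at 0.8% per 1000 barcodes, 980 in all; the caller's own threshold marked 481. Library totals ran from 19714338 to 25824289 UMIs. Gates used a minimum of 2 UMIs. UMIs were summed per library and gate and tested with edgeR 4.0.16 (R 4.3.3; TMM, filterByExpr, quasi-likelihood, Benjamini-Hochberg adjustment over all genes tested), with the 10 gate genes left out of tests. 1 model held the 5 neuron gates and 1 the 3 glial gates, each with the library as a block. DESeq2 1.42.0 was an alternative, as were other gate minimums, filters, depths and each library left out. Added after seeing the data were 2 more, on the Sox6 split, and the comparison of sex differences between glutamate and GABA nuclei. Thinning used the exact expected detection at 2000 UMIs for shares, co-detection and the mean number of factors per nucleus. The splits by detection after thinning used a single random draw per nucleus. Intervals and floors (3 counts) cover counting error only. The tests were checked on simulated counts with a fixed dispersion of 0.02, no differences between libraries, and changes in genes with at least 200 UMIs. Of log2 changes of 1, 78% were recovered for dopamine minus GABA, 41% for dopamine minus Slc26a7-Gad2 and 34% for dopamine minus Th-C1ql1. False calls made up 2.52% to 7.28% of calls, the most in the Pitx3 split. Genes with fewer UMIs were not covered.

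The factors and the gene lists were chosen with earlier results of these data known. Genes were named by rule: all 10 factors, up to 4 genes per list with the lowest p, up to 5 each way per split among called genes with a mean of at least 20 CPM that moved the same way in 4 libraries, and the 3 genes most like each factor; Nr2f1, Nr2f2, Corin, Bdnf and Sim1, and the genes given for GABA nuclei by Sox6, were chosen after their values were seen. Ndnf was not found by name. Genes that overlap or have near-identical copies could share reads, and this was not tested. Some genes of the lists are not reported here by name.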

Additional observations from a re-analysis of the deposited data

Results flagged for a closer look

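Of 49 levels of a factor in a gate with at least 10 UMIs, 4 had a library far from the other 3 (a gap of more than 0.83 of the range), where chance gives about 1 in 20. In the glutamate gate, male 1 had 31.2 CPM of Nr4a2 where the others had 18.8 to 19.6 CPM. In the same gate, female 2 had 5.08 CPM of En2, on 9 UMIs, where the others had 1.53 to 2.02 CPM. In the Slc26a7-Gad2 gate, En1 was at 0 CPM in male 1, which held 7 nuclei, where the others had 19.7 to 21.7 CPM. Also in that gate, female 2 had 72.3 CPM of Sox6 where the others had 0 to 5.42 CPM, and 10 of the 13 UMIs came from 1 nucleus.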

How the results depend on the processing

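Of 663 refits of a factor's difference between gates, 609 kept their direction and their side of the threshold, 45 lost the call, 8 gained it and 1 reversed. The reversed one was Sox6, dopamine minus Slc26a7-Gad2, at -0.58 with a gate minimum of 1 UMI. Raising the gate minimum to 3 UMIs gave 4 factors called between dopamine and Slc26a7-Gad2, 2 between dopamine and Th-C1ql1 and 1 between Th-C1ql1 and glutamate nuclei. Leaving out a library gave 1 to 3, 1 to 3 and 3 to 5 in these comparisons. With no filter on low counts, 3 factors were called between astrocytes and oligodendrocytes, 2 between precursors and astrocytes, and 1 factor and gate pair between the sexes. Leaving out a library gave 0 to 1 such pairs. Calls summed over the 7 splits, 258 with a gene counted once per split, were 140 with a gate minimum of 3 UMIs, 67 with DESeq2, 540 with no filter, 85 with detection after thinning, and 183 to 270 without a library. Of 33 split genes that the report names and that were tested after thinning, 3 changed sign, Sntb1 (-0.38, Pitx3) and Spag16 (-0.072) and Pdlim5 (-0.24, both Lmx1b), and 24 lost the call. The cause was not tested. The mean number of factors per nucleus was higher in dopamine than in GABA and glutamate nuclei in every alternative run. No value exists for Sox6 with Otx2.

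Female and male libraries share only a replicate number. Their deviations correlated at 0.352 over 15088 genes, and with a replicate block 1 factor and gate pair was called, Sox6 in oligodendrocyte nuclei (1.18). The 7 to 24 nuclei per library of the Slc26a7-Gad2 gate and 13 to 16 of the Th-C1ql1 gate limit what could be called there.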
